A study of Mus musculus with 12 samples.

Results

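The genes described here are 10 transcripts by which Kupffer cells, the resident macrophages of the liver, are recognised in whole liver RNA: *Marco*, *Cd5l*, *Clec4f*, *Vsig4*, *Timd4*, *Cd163*, *C1qa*, *C1qb*, *C1qc* and *Adgre1*. They were taken by gene symbol as known markers, not by a threshold on these values, but with earlier results of these data known. Together they make up 10 of the 16292 genes listed in at least 1 table of the study. All 10 were measured in all 12 libraries. The libraries came from livers of female C57BL/6 mice that were wild type or lacked *Lcn2* in every cell (*Lcn2*-/-, here *Lcn2* null), which makes the secreted protein lipocalin 2. From 8 weeks of age the animals received mineral oil, or 0.8 ml/kg carbon tetrachloride (CCl4, a hepatotoxin that causes fibrosis on repeated dosing) in mineral oil, into the peritoneal cavity 2 times a week for 8 weeks, and livers were taken 48 h after the last injection. The 4 groups, wild type on oil, *Lcn2* null on oil, wild type on CCl4 and *Lcn2* null on CCl4, held 3 libraries each, and every animal had therefore received oil. The labels number the replicates but do not say more about the animals, so p-values measure only the spread between these libraries, which may be technical in part.

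Kupffer cells sit inside the liver sinusoids, where they clear bacteria, aged red cells and cell debris from portal blood. They are seeded before birth, renew themselves locally, and hold their identity through signals from stellate cells, sinusoidal endothelium and hepatocytes. When resident cells are lost, monocytes enter the niche and take up parts of the same programme in sequence. Among the 10 genes, *Clec4f* is the most restricted to Kupffer cells in the mouse. *Timd4* and *Vsig4* also mark peritoneal macrophages, *Marco* and *Cd5l* are made by some splenic and other tissue macrophages, and *Cd163*, the C1q chains and *Adgre1* are made by macrophages of many organs. The values come from whole liver, so fewer Kupffer cells and less RNA per cell cannot be told apart.

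On the mouse genome GRCm38, *Marco* lies at chr1:120474538-120505024 on the minus strand, *Clec4f* at chr6:83644542-83656187 on the minus strand, *Cd163* at chr6:124304656-124330527 and *Timd4* at chr11:46810800-46844332, both on the plus strand. *C1qb*, *C1qc* and *C1qa* are neighbours on the minus strand at chr4:136880129-136898803, a span of 18675 bases with 0 other annotated genes inside. None of the 10 genes overlapped another gene in the GENCODE annotation, on either strand. RefSeq promoter sequences of build GRCm38.p6 were at hand for 8 of the 10. The 200 bases before the start of 4 of them are shown because these 4 genes stand for the patterns below: *Marco*, with the largest change on oil, *C1qb* of the C1q group, and *Timd4* and *Cd163*, which were lower on CCl4 in both genotypes. Capitals mark GAGGAA, or TTCCTC on the other strand, the purine-rich core of sites for PU.1, a transcription factor of the macrophage lineage.
Marco (chr1:120505025-120505224, minus strand): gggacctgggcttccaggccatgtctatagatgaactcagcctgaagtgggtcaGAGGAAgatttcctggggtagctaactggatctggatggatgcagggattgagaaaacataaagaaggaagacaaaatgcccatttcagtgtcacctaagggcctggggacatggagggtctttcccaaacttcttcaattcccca
C1qb (chr4:136886201-136886400, minus strand): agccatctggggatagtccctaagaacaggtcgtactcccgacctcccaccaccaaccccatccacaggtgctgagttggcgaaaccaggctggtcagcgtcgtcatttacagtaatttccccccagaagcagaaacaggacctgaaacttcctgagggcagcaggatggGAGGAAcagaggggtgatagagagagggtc
Timd4 (chr11:46810599-46810798, plus strand): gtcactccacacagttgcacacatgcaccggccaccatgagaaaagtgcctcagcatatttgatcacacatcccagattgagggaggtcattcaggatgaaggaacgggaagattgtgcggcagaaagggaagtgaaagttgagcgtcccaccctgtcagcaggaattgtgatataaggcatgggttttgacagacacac
Cd163 (chr6:124304451-124304650, plus strand): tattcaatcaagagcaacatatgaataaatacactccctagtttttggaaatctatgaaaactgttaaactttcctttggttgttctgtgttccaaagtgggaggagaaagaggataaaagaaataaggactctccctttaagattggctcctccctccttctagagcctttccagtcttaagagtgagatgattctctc
GAGGAA was present on either strand in 5 of the 8 windows, those of *Marco*, *Cd5l*, *C1qb*, *C1qc* and *Vsig4*, and not in those of *Clec4f*, *Timd4* and *Cd163*. Of all 32851 promoter windows of this length, 19.0% held it. TGCTGA, part of the site of MAF factors, was present in 4 of the 8 (*Cd5l*, *C1qb*, *Clec4f* and *Timd4*) and in 13.2% of all windows, and TGANTCA, the site of AP-1 factors, in 0 of the 8 and in 5.48% of all windows. In none of the windows did a match of 1 motif overlap a match of another, and a match does not show that a factor was bound.

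*Lcn2* itself checked the genotype labels. It was at 345, 739 and 1045 CPM (the reads of a gene scaled to a fixed total of 1000000 counted reads per library) in the wild type oil libraries and at 557, 424 and 405 CPM in the wild type CCl4 libraries, against 7.74, 3.44 and 4.21 CPM in the null oil libraries and 16.7, 14.6 and 4.63 CPM in the null CCl4 libraries. Depth ran from 7582962 to 14591487 counted reads, so that 3 reads corresponded to 0.206 to 0.396 CPM. The member with the fewest reads, *Timd4*, had 30 reads in its lowest library. In 3 of the 4 groups 1 library stood apart for every member: wild type oil replicate 3 was the lowest of its group for all 10 genes, and wild type CCl4 replicate 3 and null oil replicate 3 were the highest of theirs for all 10. In *Lcn2* null on CCl4 replicate 2 was the highest for 3 genes and the lowest for 3 others, and no library was at 1 end for all 10. Summed over the 10 genes, the libraries reached 907 to 1570 CPM in wild type on oil, 507 to 686 CPM in *Lcn2* null on oil, 818 to 1411 CPM in wild type on CCl4 and 702 to 1072 CPM in *Lcn2* null on CCl4. The plot of levels by library shows these values for each gene.

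**Figure D1:**
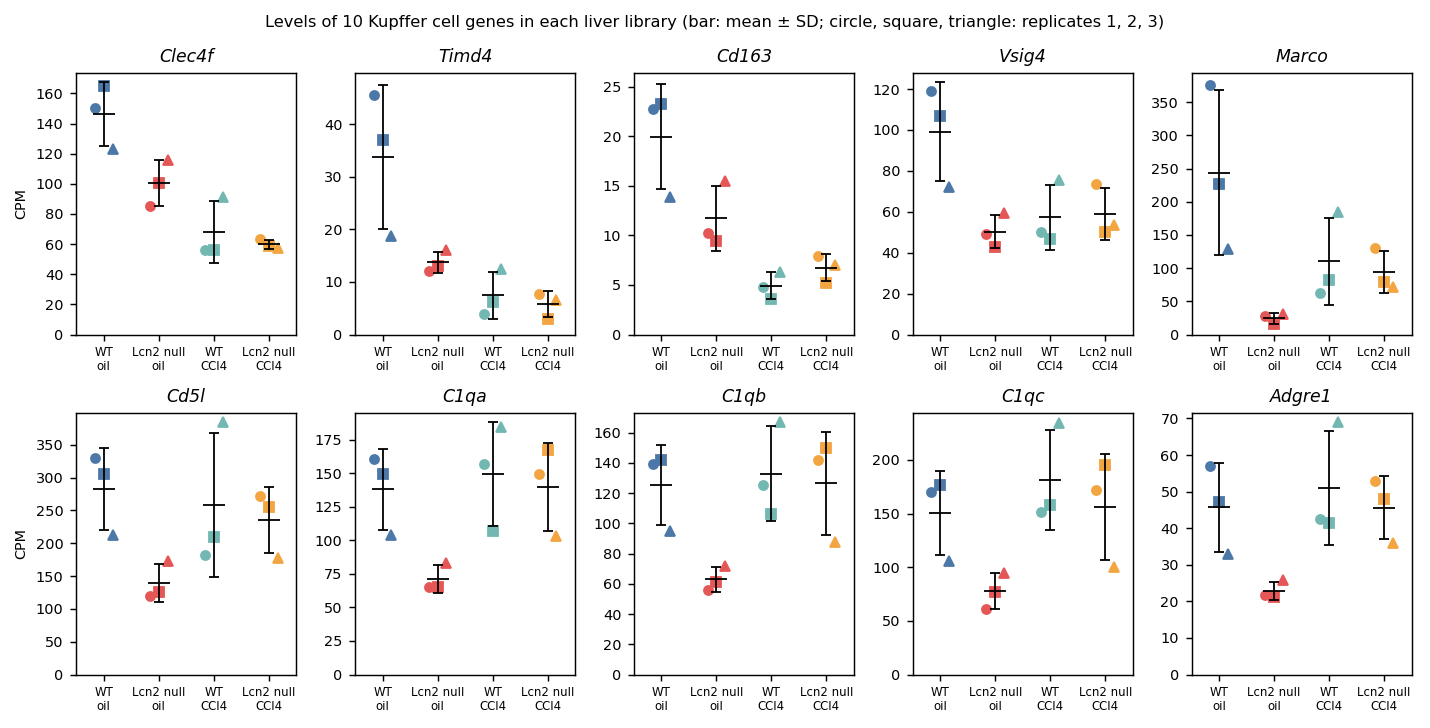
CPM of each of the 10 genes (linear axes from 0) in the 12 libraries, by group; points are libraries with a shape for each replicate number, bars the mean ± SD of 3. *Marco* was lowest in the *Lcn2* null oil group (15.4 to 31.6 CPM), *Timd4* and *Cd163* were low in both CCl4 groups, and the C1q genes and *Adgre1* were low in the *Lcn2* null oil group alone.

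The first comparison asked whether livers without *Lcn2* differed in these transcripts after oil injections. They did for most: 8 of the 10 genes were lower in *Lcn2* null on oil, 0 were higher and 2 did not pass the test. A gene was called where limma gave an adjusted p of at most 0.05 (Benjamini-Hochberg, over all genes tested) and the log2 fold change of CPM + 1 exceeded 0.56 in size. By this rule 3.80% of the 14202 genes tested were lower in the null livers. The median log2 fold change of the 10 genes was -0.94, against -0.03 for all genes tested. In 9 of the 10 genes every null library lay below every wild type library, which held for 14.3% of all genes in that direction.

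*Marco*, a class A scavenger receptor that binds bacteria and modified lipoproteins, fell furthest. Its levels in wild type on oil were 376, 227 and 129 CPM, and in *Lcn2* null on oil 27.4, 15.4 and 31.6 CPM. The groups did not overlap, and the coefficient of variation was 34.0% in the null and 50.9% in the wild type libraries. The log2 fold change was -3.18 ± 0.32 (SE; limma adjusted p = 0.00019, 3 against 3 libraries). *Marco* was also the only 1 of the 10 that was called when each gene's variance was estimated without the trend over expression level, a setting under which the adjusted p of the other members called here ran from 0.050 to 0.099.

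*Cd5l* makes a secreted scavenger receptor cysteine-rich protein, also called AIM, that Kupffer cells release into blood. It was at 330, 306 and 212 CPM in wild type and at 119, 126 and 173 CPM in null livers on oil, without overlap (log2 fold change -1.01 ± 0.17, limma adjusted p = 0.0047). *Vsig4* is the complement receptor of the immunoglobulin superfamily through which Kupffer cells catch C3b-coated bacteria. Its 119, 107 and 72 CPM in wild type stood above 49.0, 42.8 and 59.3 CPM in null livers (-0.95 ± 0.17, limma adjusted p = 0.0074). *Timd4* makes a receptor for phosphatidylserine on dying cells and marks Kupffer cells of embryonic origin. It was at 45.6, 36.9 and 18.8 CPM in wild type and at 12.1, 13.1 and 16 CPM in null livers, with the lowest wild type library only just above the highest null library (-1.16 ± 0.25, limma adjusted p = 0.020). Its call was lost in 4 of the 6 fits that left out 1 library.

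The 3 C1q genes make the chains of C1q, the recognition subunit that starts the classical complement pathway and is secreted largely by macrophages. *C1qa* was at 161, 149 and 104 CPM in wild type and at 65.4, 65.4 and 83.3 CPM in null livers on oil. *C1qb* ran from 95.1 to 142 CPM and from 55.9 to 72 CPM, and *C1qc* from 106 to 177 CPM and from 61.0 to 94.8 CPM in the same groups. None of the 3 overlapped between genotypes, and their log2 fold changes were alike at -0.93 ± 0.16, -0.97 ± 0.15 and -0.93 ± 0.19 (limma adjusted p = 0.0049, 0.0035 and 0.014). The *C1qc* call was lost in 3 of the 6 fits that left out 1 library. *Adgre1*, which makes the adhesion G protein-coupled receptor F4/80, was at 57.0, 47.3 and 32.8 CPM in wild type and at 21.8, 21.3 and 25.8 CPM in null livers (-0.93 ± 0.18, limma adjusted p = 0.0089).

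*Clec4f* and *Cd163* were the exceptions. *Clec4f*, a C-type lectin that binds galactose and N-acetylgalactosamine, was at 151, 165 and 123 CPM in wild type and at 85.2, 101 and 116 CPM in null livers on oil. The groups did not overlap and the adjusted p was 0.036 from limma, but the log2 fold change of -0.54 ± 0.13 was short of the threshold. *Cd163*, the receptor for haemoglobin bound to haptoglobin, was at 22.7, 23.3 and 13.8 CPM in wild type and at 10.2, 9.47 and 15.5 CPM in null livers. Here the groups overlapped in 1 library of each (-0.71 ± 0.22, limma adjusted p = 0.089), although DESeq2 on the recovered reads called it (adjusted p = 0.012).

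How many members passed depended on single libraries. Without *Lcn2* null oil replicate 2, 4 genes were called (*Marco*, *Cd5l*, *C1qa* and *C1qb*). Without *Lcn2* null oil replicate 3 or without wild type oil replicate 3, all 10 were. *Marco*, *Cd5l*, *C1qa* and *C1qb* were called in each of the 6 fits that left out 1 library.

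Within a library, a difference between 2 genes does not depend on how libraries are scaled to each other. *Marco* minus *Clec4f*, as a difference of log2(CPM + 1), was 1.31, 0.46 and 0.07 in wild type on oil and -1.60, -2.64 and -1.84 in *Lcn2* null on oil. The means differed by -2.64 and the groups did not overlap (exact two-sided permutation test, p = 0.1, the smallest p that 3 against 3 libraries allow). *Marco* minus *Adgre1* gave -2.24 for the same difference of means, with the same exact p of 0.1. *C1qb* minus *C1qa* moved by only -0.04 (exact permutation p = 0.6), within the SD of 0.07 between libraries. *Marco* and *Clec4f* had the lowest and the highest fold change of the 10 genes on oil, so this pair restates those values and adds no separate support.

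Other macrophage genes were lower in the same livers. Of 14 further genes of Kupffer cell identity, 6 were lower and 0 higher, with a median log2 fold change of -0.74. *Vcam1*, an adhesion molecule, was at 10.4 ± 1.58 CPM in null and 25.3 ± 5.35 CPM in wild type livers on oil (SD, n = 3; log2 fold change -1.20, limma adjusted p = 0.0025). *Spic*, a transcription factor of iron-recycling macrophages, was at 1.02 ± 0.27 against 4.41 ± 0.08 CPM (-1.43), *Il18bp*, a secreted inhibitor of interleukin 18, at 20.0 ± 1.68 against 38.7 ± 7.59 CPM (-0.91), and *Cd38*, an NAD glycohydrolase, at 16.5 ± 3.01 against 29.6 ± 3.81 CPM (-0.81). Among 18 genes that macrophages of all tissues share, 13 were lower, led by *Ctss*, the protease cathepsin S (-1.29), *Fcer1g* and *Tyrobp*, adaptors of activating receptors (-1.02 and -1.12), and *Sirpa*, an inhibitory receptor for CD47 (-1.08). Without *Lcn2* null oil replicate 2 or without wild type oil replicate 2, 3 of the identity genes and 7 of the shared genes were called.

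Genes of the molecules that the members work with split by source. Of 12 measured scavenger receptors, 4 were lower: *Cxcl16* (log2 fold change -1.04), *Msr1*, a class A receptor like *Marco* (-0.96), *Scara5* (-1.88) and *Scara3* (-1.15). Among 18 measured genes of dying-cell clearance, 4 were lower, namely *Gas6*, which bridges phosphatidylserine to its receptors (-1.51), *Pros1* (-0.56), *Axl* (-0.74) and *Elmo1* (-1.33). Of the 12 genes of haemoglobin and haem handling, 3 were lower. *Hpx* and *Hp*, the hepatocyte-made carriers of haem and haemoglobin, had log2 fold changes of -1.50 and -1.27, and *Hmox1*, which opens the haem ring, one of -0.94. Leaving out a library gave 2 to 4 called scavenger receptors, with 2 when either replicate 2 or null oil replicate 3 was left out, and 1 to 3 called clearance genes, with 1 without null oil replicate 2 and 2 without null oil replicate 1 or wild type oil replicate 1 or 2. The classical complement partners counted 7 lower of 19, among them *Itgb2* (-1.53), *Cd55* (-1.42) and *Itgam* (-1.29). *Itgb2* and *Itgam* are also counted among the monocyte genes below.

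Markers of other cells moved with the member genes on oil, and their part in the results above was not tested. Monocyte genes counted 14 lower of 20 (median log2 fold change -1.14), neutrophil genes 9 of 13 (-1.65) and mesothelial genes 9 of 9 (-1.79). The mesothelial count was 9 with any library left out, whereas 8 to 12 monocyte genes were called (8 without null oil replicate 1 or wild type oil replicate 2, and 9 without null oil replicate 2) and 6 to 9 neutrophil genes. Lipid-associated macrophage genes counted 6 lower of 10 (-0.96), and stellate cell and fibroblast genes 4 of 10 (-0.62), namely *Col1a1*, *Col1a2*, *Col3a1* and *Timp1*. The summed level of 9 mesothelial genes was 49.5 to 70.6 CPM in wild type and 10.1 to 12 CPM in null livers. That of 15 neutrophil genes was 840 to 1711 and 258 to 400 CPM. Most of the neutrophil sum was *Lrg1* alone, with means of 1006 CPM in wild type and 309 CPM in null livers on oil. Of 7 measured peritoneal macrophage genes 3 were lower (*Saa3*, *Cd9* and *Prg4*), and 6 had negative fold changes. The sum of the 9 genes of that list measured in all libraries was 423 to 549 CPM in wild type and 109 to 122 CPM in null livers on oil. *Gata6*, the transcription factor that defines large peritoneal macrophages, was at 7.40 ± 2.66 CPM in null and 7.24 ± 0.77 CPM in wild type livers on oil. It was named after its values were seen, and 1 gene does not show whether these cells were alike. Spleen macrophage genes counted 4 lower of 7, among them *Cd5l* itself and *Vcam1* and *Spic*, already counted above as Kupffer cell identity genes. Sinusoidal endothelial genes counted 0 of 10, with a median of -0.09, and their sum overlapped between genotypes (299 to 347 and 269 to 385 CPM). For that list, edgeR and DESeq2 also called 0. The sum of 10 hepatocyte genes was higher in the null oil libraries, at 107939 to 122067 CPM against 83689 to 97493 CPM, while 6 of the 10 genes had positive and 4 negative fold changes, and 0 were called higher and 1, *Pck1*, lower (-0.67). *Pck1* was not called with TMM scaling.

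**Figure D2:**
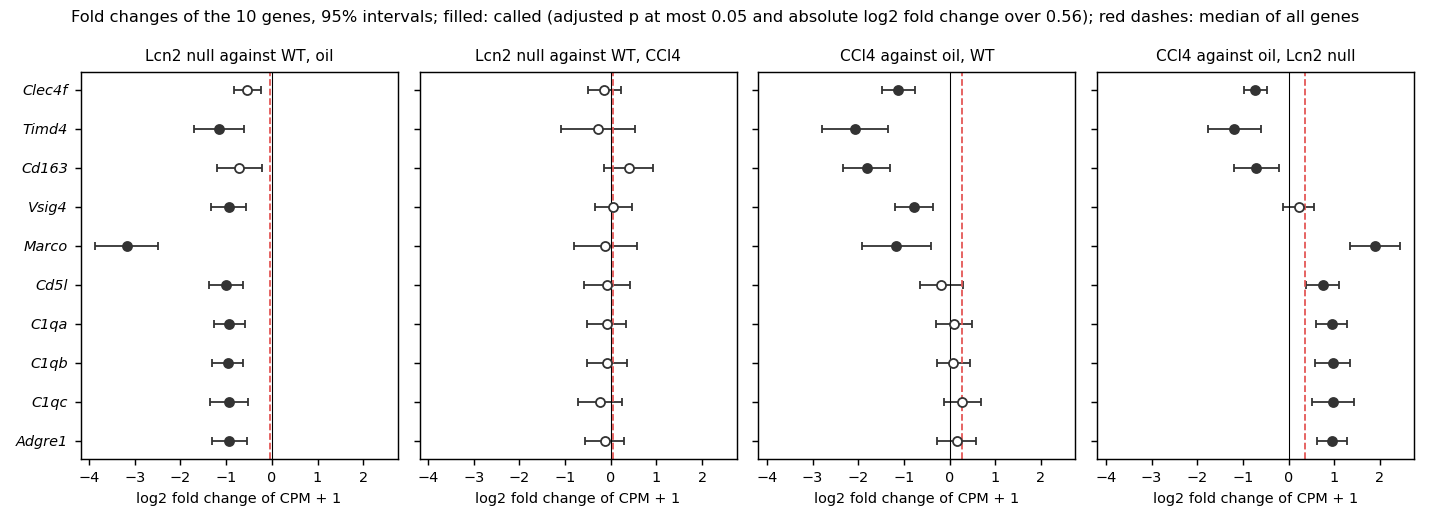
Log2 fold change of CPM + 1 for each gene in the 4 comparisons, with 95% intervals from limma; filled points were called and the red dashed line is the median of all genes tested. On oil all 10 genes lay below 0 and *Marco* lay furthest at -3.18; between genotypes on CCl4 all 10 intervals crossed 0.

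The second comparison set CCl4 against oil in wild type livers. It divided the genes: 5 of the 10 were lower on CCl4, 0 were higher and 5 did not pass the test. By the same rule 3.18% of 15841 genes tested were lower and 18.5% higher. The centre of all genes was itself shifted, with a median log2 fold change of 0.27 in wild type and 0.35 in *Lcn2* null livers, so each value below is to be read against that shift. TMM scaling, which sets most genes to no change, brought the 2 medians to 0.02 and 0.03 and changed the genome-wide split from 2931 higher and 504 lower to 1199 and 1080 in wild type. The member calls in wild type were the same 5 with TMM scaling, under which 6.82% of all genes were lower.

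*Timd4* fell furthest, from 45.6, 36.9 and 18.8 CPM on oil to 3.86, 6.10 and 12.5 CPM on CCl4. The groups did not overlap (log2 fold change -2.08 ± 0.34, limma adjusted p = 0.00041). *Cd163* was at 4.75, 3.63 and 6.36 CPM on CCl4, below all 3 oil libraries (-1.82 ± 0.24, limma adjusted p = 7.7e-05). *Clec4f* was at 56.3, 55.9 and 91.5 CPM on CCl4, also below all oil libraries (-1.12 ± 0.17, limma adjusted p = 0.00023). These 3 were called in all 6 fits that left out 1 library and under every other setting tried. Non-overlap in this direction was found in 6.82% of all genes tested.

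*Vsig4* and *Marco* were lower with overlapping groups. *Vsig4* was at 49.9, 46.6 and 75.7 CPM on CCl4, where the highest library exceeded the lowest oil library of 72 CPM (log2 fold change -0.78 ± 0.19, limma adjusted p = 0.0071). *Marco* was at 62.6, 82.7 and 185 CPM on CCl4, with replicate 3 well above the oil minimum of 129 CPM (-1.17 ± 0.35, limma adjusted p = 0.022). The *Marco* call was lost with DESeq2 (adjusted p = 0.087), without the variance trend (0.10) and when wild type oil replicate 1 or 2 or wild type CCl4 replicate 1 or 2 was left out, over adjusted p-values of 0.0030 to 0.15 in all settings. The *Vsig4* call was lost without the variance trend (adjusted p = 0.057) and with a log2 threshold of 1.

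The C1q genes, *Adgre1* and *Cd5l* stayed within the spread between libraries. *C1qa* was at 156, 107 and 184 CPM on CCl4, around its oil values (log2 fold change 0.10, 95% interval -0.29 to 0.49). *C1qb* had 0.08 (-0.28 to 0.44), *C1qc* 0.27 (-0.13 to 0.68), *Adgre1* 0.15 (-0.29 to 0.59) and *Cd5l* -0.18 (-0.66 to 0.29). With TMM scaling the sign of the first 4 turned, to -0.22, -0.25, -0.05 and -0.17, and none was called either way, so their direction in wild type is not given by these data.

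The third comparison set CCl4 against oil in *Lcn2* null livers, from 6 other libraries. As deposited, 6 of the 10 genes were higher on CCl4, 3 were lower and *Vsig4* did not pass the test; 29.6% of 15645 genes tested were higher and 4.51% lower. With TMM scaling, 1 of the 10 was higher and 3 were lower, against 12.5% and 10.7% of all genes, and the genome-wide calls went from 4631 higher and 705 lower to 1962 and 1672. The 3 lower genes and *Marco* were called under both scalings. The plot of the CCl4 response under both scalings shows which genes kept their call.

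*Clec4f*, *Timd4* and *Cd163* were the 3 lower genes, the same genes that were lower without overlap in wild type, in libraries that the wild type comparison did not use. *Clec4f* went from 85.2, 101 and 116 CPM on oil to 63.2, 58.6 and 57.8 CPM on CCl4 (log2 fold change -0.73 ± 0.12, limma adjusted p = 0.00034, and -1.15 with TMM scaling). *Timd4* was at 7.65, 3.02 and 6.63 CPM on CCl4 against 12.1 to 16 CPM on oil (-1.19 ± 0.27, limma adjusted p = 0.0036). *Cd163* was at 7.91, 5.24 and 7.0 CPM against 9.47 to 15.5 CPM (-0.71 ± 0.23, limma adjusted p = 0.023), without overlap. The *Cd163* call was lost without *Lcn2* null CCl4 replicate 2 and without *Lcn2* null oil replicate 3. Lower groups without overlap made up 8.53% of all genes tested.

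*Marco* moved the other way in the null livers, from 27.4, 15.4 and 31.6 CPM on oil to 131, 79.3 and 72.3 CPM on CCl4. The groups were far apart (log2 fold change 1.89 ± 0.25, limma adjusted p = 8.1e-05), and the gene was called with every setting and every library left out. *C1qa* rose from 65.4, 65.4 and 83.3 CPM to 149, 167 and 104 CPM (0.94 ± 0.16, limma adjusted p = 0.00051), *C1qb* by 0.96 ± 0.18, *C1qc* by 0.97 ± 0.21 and *Adgre1*, from 21.3 to 25.8 CPM on oil to 36.0 to 52.9 CPM on CCl4, by 0.95 ± 0.15. *Cd5l* was at 272, 255 and 178 CPM against 119, 126 and 173 CPM (0.75 ± 0.16, limma adjusted p = 0.0030). With TMM scaling these last 5 genes had log2 fold changes of 0.32 to 0.54, under the threshold, and edgeR and DESeq2 on the recovered reads called *C1qb* and *Adgre1* of them. *Vsig4* had 0.22 ± 0.16 as deposited and -0.20 with TMM scaling.

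**Figure D3:**
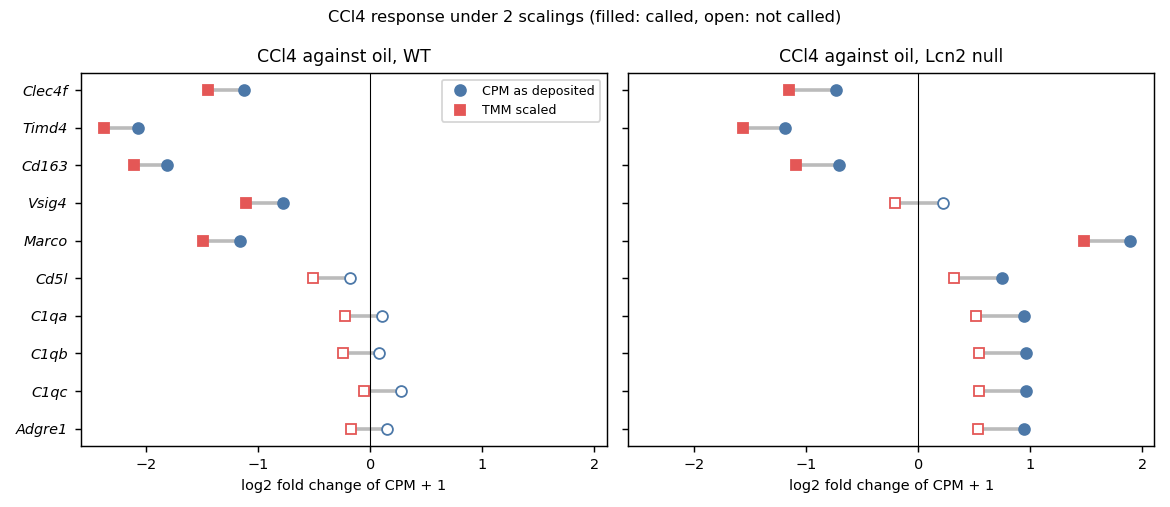
Log2 fold change of CPM + 1 on CCl4 against oil for each gene in wild type (left) and *Lcn2* null livers (right), as deposited (blue circles) and after TMM scaling (red squares); filled symbols were called. *Clec4f*, *Timd4* and *Cd163* were filled on the lower side under both scalings in both genotypes, and the C1q genes, *Adgre1* and *Cd5l* lost their call in null livers after scaling.

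Differences within a library restate the same division without any scaling. The pairs were taken from both sides of it, so they add no separate support. *Clec4f* minus *C1qa*, a pair chosen after its values were seen and given without a test, was -0.09, 0.14 and 0.24 on the log2 scale in wild type on oil and -1.46, -0.93 and -1.0 in wild type on CCl4. In null livers it went from 0.38, 0.62 and 0.47 on oil to -1.23, -1.49 and -0.83 on CCl4. *Timd4* minus *Adgre1*, chosen in the same way, had a mean of -0.48 ± 0.26 (SD, n = 3) and -0.71 ± 0.08 in wild type and null livers on oil, and -2.71 ± 0.41 and -2.84 ± 0.69 on CCl4. In both pairs all 6 CCl4 libraries lay below all 6 oil libraries.

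In wild type the difference between *Marco* and *Clec4f* moved by less than the spread between libraries. It had a mean of 0.61 on oil and 0.57 on CCl4 (exact permutation p = 1, where 0.1 is the smallest possible). *Marco* minus *Adgre1* was lower on CCl4 by 1.32 on the log2 scale, with groups that did not overlap and an exact permutation p of 0.1. *C1qb* minus *C1qa* again moved little, by -0.02 (exact permutation p = 0.8). In *Lcn2* null livers on CCl4 *Marco* minus *Clec4f* was 1.04, 0.43 and 0.32, above the 3 negative values of the null oil group.

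**Figure D4:**
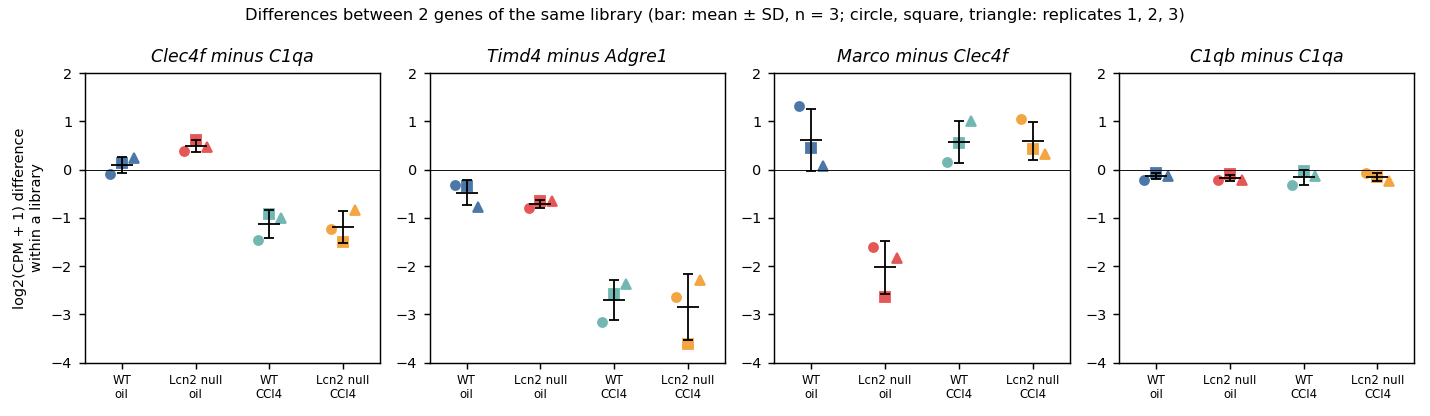
Difference of log2(CPM + 1) between 2 genes of the same library, by group; points are libraries and bars the mean ± SD of 3. *Clec4f* minus *C1qa* and *Timd4* minus *Adgre1* were lower in all CCl4 libraries, *Marco* minus *Clec4f* was negative in the *Lcn2* null oil group alone, and *C1qb* minus *C1qa* stayed between -0.32 and -0.02.

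Other gene groups in the same CCl4 livers are given as measured, and their part in the member results was not tested. Of the 14 further Kupffer cell identity genes, 3 were lower in wild type, *Fcna*, which makes the lectin ficolin A (28.6 ± 10.5 CPM on CCl4, 69.1 ± 18.9 CPM on oil, log2 fold change -1.27), *Pltp*, a phospholipid transfer protein (-1.65), and *Folr2*, a folate receptor (-1.01). *Vcam1* was higher (0.97). In null livers *Fcna* (-0.72) and *Pltp* (-1.30) were lower and 5 genes were higher, led by *Vcam1* (2.15), and with TMM scaling 3 were lower and 3 higher. Lipid-associated macrophage genes, which mark macrophages recruited to injured and fatty liver, counted 8 higher of 10 in wild type and 10 of 10 in null livers. *Gpnmb*, a lysosomal glycoprotein, went from 1.17 ± 0.96 to 54.9 ± 8.37 CPM in wild type, and *Mmp12*, macrophage elastase, from 1.65 ± 0.87 to 81.0 ± 11.5 CPM in wild type and from 0.97 ± 0.91 to 88.2 ± 38.8 CPM in null livers.

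Pan-macrophage genes counted 3 higher and 1 lower of 18 in wild type on CCl4, and 14 higher in null livers, where TMM scaling gave 8. The shares of all genes called higher were 18.5% and 29.6%. Without wild type CCl4 replicate 1 the wild type count was 5 higher, without wild type oil replicate 1 it was 6, and the lower call held in 2 of the 6 fits that left out 1 library. *Cd68*, a lysosomal protein of macrophages, rose by 1.05 in wild type and by 2.10 in null livers on the log2 scale, and *Sirpa* by 0.99 and 1.98. *Csf1r*, the receptor for the growth factor that Kupffer cells depend on, was the lower gene in wild type (76.2 ± 19.2 against 114 ± 28.0 CPM, -0.58). Of 20 monocyte genes, 3 were higher in wild type and 17 in null livers, against 1 higher and 2 lower in wild type and 14 higher and 1 lower in null livers with TMM scaling. The wild type count was 1 without wild type CCl4 replicate 1, and 6 without wild type CCl4 replicate 2 or wild type oil replicate 1. *Ccr2*, the chemokine receptor of inflammatory monocytes, went from 2.62 ± 1.65 to 17.4 ± 5.79 CPM and from 1.26 ± 0.47 to 14.1 ± 5.11 CPM. Related lectins counted 2 higher and 1 lower of 11 in wild type, where *Clec7a*, the beta-glucan receptor dectin-1, had a log2 fold change of 2.35 while *Adgre4*, a close relative of *Adgre1*, had -1.07. In null livers 6 of them were higher, again led by *Clec7a* (2.71). Mesothelial genes counted 8 lower of 9 in wild type and 1 higher of 9 in null livers. The wild type count was 4 with DESeq2, 2 without wild type CCl4 replicate 1, 3 without wild type oil replicate 1 or 2, 4 without wild type CCl4 replicate 2 and 5 without wild type oil replicate 3. Neutrophil genes counted 5 lower of 16 in wild type and 10 higher of 15 in null livers, the latter 6 with TMM scaling, 4 with edgeR and 3 with DESeq2. Stellate cell and fibroblast genes counted 6 higher of 10 in wild type and 7 in null livers, among them *Col1a1* (4.95 and 5.84).

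Genes that signal in the Kupffer cell niche counted 7 higher and 1 lower of 18 in wild type and 9 higher in null livers, but 4 and 0 higher with TMM scaling. The lower gene was *Csf1r*, already counted above among the pan-macrophage genes. Without wild type CCl4 replicate 1 the wild type count was 4. *Tgfbr1* and *Tgfbr2*, receptors for TGF-beta, had log2 fold changes of 0.91 and 1.04 in wild type, and *Jag1* and *Dll1*, ligands of Notch, 1.25 and 1.22. Complement partners counted 4 higher and 5 lower of 20 in wild type, and 4 and 9 with TMM scaling. *Cd93* (1.90), *C3ar1* (1.48), *Itgax* (2.26) and *C5ar1* (1.37) were higher, and *C1ra* (-0.69), *Serping1* (-0.70) and *C4b* (-0.61), made largely by hepatocytes, were lower. Among the 19 genes of dying-cell clearance in wild type, 4 were higher, led by *Itgb5* (0.98) and *Mfge8* (1.34), and *Gas6* was lower (-1.13), a share of higher genes near the 18.5% of all genes. With TMM scaling 2 were higher and 2 lower. In null livers 11 of 19 were higher, 5 with TMM scaling and 7 without *Lcn2* null CCl4 replicate 2.

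The genotypes were then compared on CCl4. Of the 10 genes, 0 were called, against 0.104% of 14445 genes tested higher and 0.194% lower, and edgeR and DESeq2 also called 0. The unadjusted limma p was under 0.05 for 0 of the 10, and for 704 higher and 548 lower of all genes tested. With so few genes passing either rule, counts of 0 of 10 do not set the members apart. *Marco* was at 131, 79.3 and 72.3 CPM in null and at 62.6, 82.7 and 185 CPM in wild type livers, with a log2 fold change of -0.12 (95% interval -0.81 to 0.58). The other log2 fold changes ran from -0.27 for *Timd4* (-1.08 to 0.54) to 0.39 for *Cd163* (-0.14 to 0.93), and every gene's groups overlapped. The narrowest intervals, those of *Clec4f* (-0.50 to 0.22) and *Vsig4* (-0.35 to 0.46), leave room for differences of that size, so the test does not show that the genotypes were alike.

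Whether the CCl4 response itself differed between genotypes was tested with all 12 libraries. The response of *Marco* was higher in null than in wild type livers by 3.06 ± 0.53 on the log2 scale (limma adjusted p = 0.0059), and it was the only 1 of the 10 genes called, where 1.08% of 15210 genes tested were called in that direction. The other 9 had differences of 0.40 (*Clec4f*, 95% interval -0.09 to 0.89) to 1.11 (*Cd163*, 0.37 to 1.84). All 10 estimates were positive, with a median of 0.89 against 0.09 for all genes tested. The unadjusted limma p was under 0.05 for 7 of the 10, and for 1482 higher and 788 lower of the 15210 genes tested. This comparison rests on the same null oil libraries as the first. *Marco* was called with each of the 12 libraries left out in turn, and it was not called without the variance trend (adjusted p = 0.068). DESeq2 also called *Cd163* (adjusted p = 0.034). TMM scaling changed the genome-wide split from 164 higher and 123 lower to 136 and 193, with *Marco* at 2.98 and again the only member called. Without wild type CCl4 replicate 3, *Cd5l* and *Vsig4* were called as well, without *Lcn2* null CCl4 replicate 3 *C1qa* and *C1qb* were, and without wild type oil replicate 3 *Vsig4* was.

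The profiles over all 12 libraries sorted the members along the division on CCl4 only in part, as a description of libraries that share groups and preparation. Each profile was the log2(CPM + 1) centred on the gene's own mean. Likeness was the root mean square difference between profiles over the 12 libraries, among 9575 genes with a mean of at least 5 CPM. The genes nearest to *C1qa* were *C1qb* (0.083), *Lst1* (0.124), *Pld4* (0.138), *Adgre1* (0.140) and *Axl* (0.145). Those nearest to *Clec4f* were *Fcna* (0.214), *Alas2* (0.218), *Pcolce2* (0.237), *mt-Ti* (0.243) and *Avl9* (0.257). Among members, *Clec4f* was nearest to *Cd163* (0.314), and nearer to *Vsig4* (0.393) than to *Timd4* (0.541). The nearest to *Marco* were *Krt19* (0.552), *Wfdc17* (0.586), *Lyz2* (0.592), *Cpe* (0.610) and *Ezr* (0.637), with no other member among them. Its own profile spanned 4.53 on the log2 scale, against 1.54 for *Clec4f* and 1.48 for *C1qa*. The differences were not scaled to a gene's own span, so genes with a wide span have larger values. Between members, *Marco* and *Timd4* were the least alike pair (1.27) and *C1qa* and *C1qb* the most alike.

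In order of group means, *Clec4f* and *Timd4* were highest in wild type on oil, followed by *Lcn2* null on oil, wild type on CCl4 and *Lcn2* null on CCl4. For both genes the first group stood clear of the second and each later group overlapped the next. *Cd163* ran in the order wild type on oil, *Lcn2* null on oil, *Lcn2* null on CCl4 and wild type on CCl4, and the oil and CCl4 groups did not overlap. For *C1qa*, *C1qb*, *C1qc*, *Adgre1* and *Cd5l* the *Lcn2* null oil group lay below every other library, and the other 3 groups overlapped one another. *Marco* was highest in wild type on oil, which overlapped both CCl4 groups, and lowest in *Lcn2* null on oil, which overlapped none. *Vsig4* was highest in wild type on oil, and its *Lcn2* null oil group overlapped both CCl4 groups.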

How the data were processed

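Liver RNA for the 12 libraries had been sequenced by the authors with a 3′ end kit (rapid MACE). The methods also name a stranded TruSeq kit. Per the labels and methods, reads were trimmed with Trim Galore, aligned with STAR to the mouse genome GRCm38, counted per gene with featureCounts (the methods name Salmon) and compared with DESeq2 (version 1.30.0). The deposited tables, 1 for each comparison, held CPM values (reads scaled to 1000000 counted reads) per library, and the CPM of a library was identical in every table that listed it. Columns of the authors' fold changes and p-values were not used.

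Members were matched by symbol. The members and gene lists were chosen with earlier results of these data known. Some genes stand in more than 1 list, among them *Csf1r*, *Hmox1*, *Axl* and *Itgax*, so the counts of these lists are not separate. All 10 members were described in each comparison, other lists by up to 4 called genes per direction with the largest moderated statistic, and likeness by the 5 nearest genes. The main test was limma (version 3.58.1, with a variance trend) on log2(CPM + 1), each pair of groups alone, over genes of the table in both groups, and the interaction over all 12 libraries. Fold changes on this scale understate those of low genes. P-values were Benjamini-Hochberg adjusted. CPM values were whole multiples of the value of 1 read in 100% of cases (tolerance 0.001), which gave depths of 7582962 to 14591487 reads and the reads for edgeR (4.0.16) and DESeq2 (1.42.0), run as alternatives; edgeR called 8 members between genotypes on oil, 5 in wild type and 6 in null livers on CCl4, 0 between genotypes on CCl4 and 1 for the interaction. R was version 4.3.3, with exact permutation tests in scipy (1.17.1). Scripts were tested on simulated data. Positions came from GENCODE M21, promoters from RefSeq GRCm38.p6. Other alternatives were pseudocounts of 0.5 and 5, TMM and size factor scaling, other filters and thresholds, a replicate block, and leaving out each library.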

Additional observations from a re-analysis of the deposited data

Results flagged for a closer look

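*Marco* responded to CCl4 differently in the 2 genotypes, and the test of that difference itself passed the threshold. Its response was higher in *Lcn2* null than in wild type livers by 3.06 on the log2 scale (limma adjusted p = 0.0059, 12 libraries). In null livers all 3 CCl4 libraries lay above all 3 oil libraries, while in wild type the means went from 244 ± 124 CPM on oil to 110 ± 65.7 CPM on CCl4 (SD, n = 3) with overlapping groups. The adjusted p ran from 0.0019 to 0.068 over all alternatives. Groups of 3 libraries were too small to test for single deviating samples.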

How the results depend on the processing

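Without the variance trend, 1, 3 and 0 members were called in *Lcn2* null against wild type on oil, CCl4 against oil in wild type and the difference of responses, and 3 members on oil and 2 in null livers on CCl4 passed a log2 threshold of 1. In null livers on CCl4, 4 were called with TMM and 4 with size factor scaling, and DESeq2 called 2 for the difference of responses. The cause was not tested. Leaving out a library gave 4 to 10 called members between genotypes on oil, 4 to 5 in wild type and 8 to 9 in null livers on CCl4, 0 to 0 between genotypes on CCl4 and 1 to 3 for the difference of responses. The signs of uncalled values turned in wild type on CCl4 with TMM, size factors, edgeR and DESeq2: *C1qa* (-0.22, -0.24, -0.22, -0.23), *C1qb* (-0.25, -0.26, -0.24, -0.26), *C1qc* (-0.053, -0.064, -0.052, -0.063) and *Adgre1* (-0.17, -0.18, -0.17, -0.17), by construction of a scaling that lowers the median gene. *Vsig4* in null livers on CCl4 turned likewise (-0.20, -0.21, -0.20, -0.20), and between genotypes on CCl4 with edgeR (-0.0047) and DESeq2 (-0.0090). With 1 library left out, log2 fold changes between genotypes on CCl4 ran from -0.44 to 0.33 for *Marco*, -0.30 to 0.24 for *Cd5l*, -0.26 to 0.091 for *Clec4f*, -0.11 to 0.27 for *Vsig4*, -0.61 to 0.13 for *Timd4*, -0.31 to 0.11 for *C1qa*, -0.23 to 0.16 for *C1qb*, -0.43 to 0.045 for *C1qc* and -0.26 to 0.10 for *Adgre1*, and on CCl4 in wild type from -0.51 to 0.033 for *Cd5l*, -0.089 to 0.32 for *C1qa*, -0.11 to 0.23 for *C1qb* and -0.084 to 0.32 for *Adgre1*. No called member turned. Replicate numbers did not pair the libraries (correlations of deviations from -0.10 to 0.06), and with the replicate block 8 members were called between genotypes on oil, 5 in wild type and 9 in null livers on CCl4, 0 between genotypes on CCl4 and 1 for the difference of responses, as without it. Counts over all genes moved more. On oil, 158 higher and 539 lower genes became 53 and 320 without the variance trend, and 62 and 327 with a threshold of 1. Between genotypes on CCl4, 15 and 28 became 7 and 4 without the trend, 70 and 116 with DESeq2, and 33 and 43 with the block. In wild type on CCl4, 1738 and 343 passed with a pseudocount of 5, and 1288 and 1245 with DESeq2, against 2931 and 504. In null livers a pseudocount of 5 gave 2889 and 499, and DESeq2 2075 and 1774, against 4631 and 705. For the difference of responses, 164 and 123 became 45 and 25 without the trend, and 375 and 354 with DESeq2. With 3 libraries a group, member log2 fold changes had standard errors of 0.12 to 0.37 in the comparisons of 2 groups. Changes well above their error could still miss the call, as *Cd163* between genotypes on oil did (-0.71 ± 0.22, limma adjusted p = 0.089). The difference of responses has no fit over a single pair of groups, so 2 of the alternatives were not run for it.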
